A study of Mus musculus with 4 samples.

Results

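The mouse Schlafen genes were followed in CD8+ T cells grown in culture and in CD8+ T cells taken from the thymus. All non-control probes named Slfn1, Slfn2, Slfn3, Slfn4, Slfn5, Slfn8, Slfn9 or Slfn10 were taken, which gave 9 of the 41174 probes on the array for 8 genes. Slfn3 had 2 probes and every other gene had 1, and each probe was printed as 1 spot. Of the 9 probes, 8 were bright enough to be tested, among 27235 tested probes in all, and the Slfn4 probe was not.

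Schlafen genes take their name from the German word for sleeping, because Slfn1, the founding member, slows the growth of T cells when it is forced on. They are known in the lymphoid lineage as genes that change during thymocyte maturation and T cell activation, and several of them are switched on by type I interferon. Slfn1 and Slfn2 encode short proteins, Slfn3 and Slfn4 intermediate ones, and Slfn5, Slfn8, Slfn9 and Slfn10 belong to the long group, which carries a helicase-like region. Loss of Slfn2 function in mice leaves T cells unable to hold a resting state.

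The cultured cells came from lineage-negative, Sca1+ CD117+ progenitors of B6 marrow (donors 6 to 8 weeks old). They were grown for 35 days on the OP9-DL1 stromal line, which displays a Notch ligand, with 5 ng/ml Flt3 ligand and 1 ng/ml IL7. The thymic cells came from C57Bl/6 mice of 4 to 5 weeks, and cells of both origins were sorted as CD8+ with high TCRbeta. There were 2 RNA preps of each origin, and each thymic prep was hybridised once against each in vitro prep, giving 4 arrays on 1 slide in 1 scan. Thymic RNA always carried the dye Cy3 and in vitro-derived RNA always Cy5, so neither a dye effect on a probe nor donor age can be separated from the origin of the cells. No separate animals are named, so the p-values measure only the spread between these preps.

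Values are log2 ratios of in vitro-derived over thymic signal, and a negative value means less RNA in the in vitro-derived cells. Probes with a limma adjusted p (Benjamini-Hochberg, over all tested probes) under 0.05 were called, and errors are standard errors (SE) of that fit on 2 preps of each origin. Calls were frequent on these arrays: 25.6% of tested probes were called lower and 26.6% higher. By genes, with the brightest tested probe standing for each, 25.3% were called lower and 26.7% higher. The median over all tested probes was 0.03, and the median SE was 0.07. Centring each array on its median in place of loess, a correction that follows brightness, moved that median to 0.37 and the share of calls that were higher from 51.0% to 83.6%. Depth does not apply to arrays; their number, 4 with 2 preps a side, limits the precision.

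Among the 8 tested Schlafen probes, 5 were called lower in the in vitro-derived cells, 1 was called higher and 2 were not called. The 5 lower probes were those of Slfn1, Slfn2, Slfn8, Slfn9 and Slfn10, with differences from -2.89 to -1.42, and the higher one was 1 of the Slfn3 probes, at 0.73. Slfn5 and the other Slfn3 probe were not called. The median of the 8 was -1.51, beside 0.03 for all tested probes. In RNA from a sorted population, fewer cells with a transcript and less of it per cell cannot be told apart. Where levels of the 2 origins are said below not to overlap, that alone says little on 2 preps a side. The Slfn4 probe, at background, did not overlap either, and the share of all probes without overlap was not counted.

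**Figure D1:**
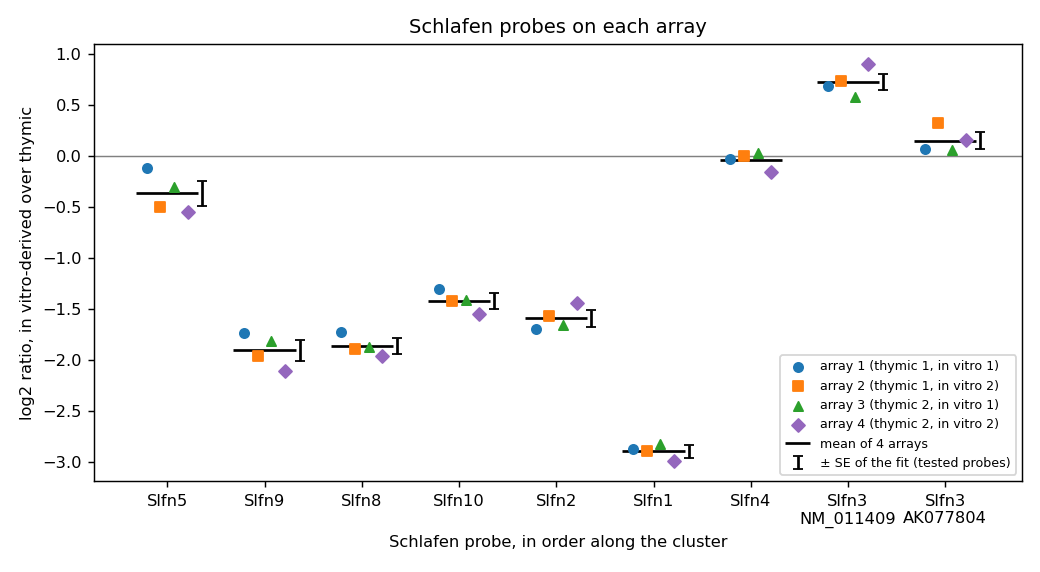
The log2 ratio (vertical axis, in vitro-derived over thymic) of each Schlafen probe (horizontal axis, in order along the cluster) on the 4 arrays, with the mean as a bar and ± SE of the limma fit for tested probes. The 5 called lower lie below -1.3 on every array, the NM_011409 probe of Slfn3 lies above 0.5 on every array, and Slfn4 lies about 0.

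The family lies in 1 cluster on chromosome 11, in the order Slfn5, Slfn9, Slfn8, Slfn10, Slfn2, Slfn1, Slfn4, Slfn3 and Slfn14, per RefSeq, which carries Slfn10 as the pseudogene Slfn10-ps. No probe on the array bore the name Slfn14. In the array's own annotation (genome build not given in the sources used here) the 60-base probes run from chr11:83043722-83043781 (Slfn5, plus strand) to chr11:83287467-83287526 (Slfn3, plus strand). That annotation sets 3 limits on reading the probes as single genes. The Slfn9 probe is also listed under the Slfn8 transcript. The Slfn10 probe is listed under the Slfn9 and Slfn8 transcripts as well as its own. The second Slfn3 probe, AK077804, stands for a thymus cDNA of unclassified product. The signal of the Slfn9 and Slfn10 probes therefore cannot be assigned to 1 gene, while the probes of Slfn1, Slfn2, Slfn4 and Slfn5, the NM_011409 probe of Slfn3 and the Slfn8 probe are each listed under 1 RefSeq gene.

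Because several Schlafen genes respond to interferon, the stretches upstream of their RefSeq starts were searched for the interferon-stimulated response element, spelled GAAA, any 2 bases and GAAA, and for the GAS element, spelled TTCNNNGAA, on both strands. The letters searched were the 250 bases before each start, and none after it. Slfn5, Slfn9 and Slfn8 held 1 response element match each. Slfn1, Slfn2, Slfn3, Slfn4 and Slfn14 held none, no window of the family held a GAS match, and Slfn10 had no entry. The matches are shown 5′ to 3′ on the gene's own strand, with the matched letters in capitals (RefSeq, build GRCm38.p6).
Slfn5, plus strand, chr11:82951927-82951976: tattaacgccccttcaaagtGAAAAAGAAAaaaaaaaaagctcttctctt
Slfn9, minus strand, chr11:82991846-82991895: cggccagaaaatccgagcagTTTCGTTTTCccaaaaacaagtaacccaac
Slfn8, minus strand, chr11:83020829-83020878: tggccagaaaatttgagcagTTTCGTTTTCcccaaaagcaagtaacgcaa
The Slfn9 and Slfn8 matches are the same 10 letters, read on the reverse strand, at 45 to 36 and 48 to 39 bases before the start; from a second RefSeq start of Slfn8 the same match lies 136 to 127 bases upstream. The Slfn5 match lies on the gene's strand, 155 to 146 bases before its start. Of all 32851 RefSeq windows of this length, 2.98% held a response element match and 7.02% a GAS match. A match is a description of letters, not a bound site.

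Slfn1, the growth-restraining founding member, moved farthest. Its log2 channel level was 10.35 and 10.34 in the thymic preps and 7.55 and 7.36 in the in vitro preps. The 4 array ratios were -2.87, -2.89, -2.82 and -2.99. The groups lay far apart beside the gap in level between preps of 1 origin, which was -0.01 in the thymus and -0.19 in vitro (prep 2 minus prep 1). The difference was -2.89 ± 0.07 (SE), 7.43-fold lower, at a limma adjusted p of 2.06e-05, and 0.272% of tested probes were as low or lower.

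Slfn2, the member needed for T cell quiescence, was also lower on every array. Its level was 12.67 and 12.55 in the thymic preps against 10.97 and 11.07 in the in vitro preps. The array ratios were -1.69, -1.57, -1.65 and -1.44, and the groups did not overlap. The difference was -1.59 ± 0.08 (SE), 3.01-fold lower (limma adjusted p 0.000128). This is a bright probe, and its value depends on how brightness is corrected. Before loess its mean ratio was -0.17, and loess took off 1.42, whereas the median ratio of tested probes before loess lay between 1.04 and 1.18 by array. With median centring the Slfn2 difference was -0.89, still called.

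The probes of the long group Slfn8, Slfn9 and Slfn10 were all lower, with the limit that those of Slfn9 and Slfn10 are listed under other members' transcripts too. The Slfn8 level was 9.87 and 9.94 in the thymic preps and 8.13 and 7.97 in the in vitro preps. Its array ratios were -1.72, -1.89, -1.87 and -1.96. Every in vitro value was below every thymic value, and the difference of -1.86 ± 0.08 (SE), 3.63-fold lower, had a limma adjusted p of 7.5e-05.

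The Slfn9 level was 10.49 and 10.61 in the thymic preps and 8.76 and 8.54 in the in vitro preps. Its array ratios were -1.74, -1.96, -1.81 and -2.11. The groups were again separate. The difference was -1.90 ± 0.11 (SE), 3.74-fold lower (limma adjusted p 0.000159).

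The Slfn10 level was 12.40 and 12.54 in the thymic preps and 11.11 and 10.99 in the in vitro preps. Its array ratios were -1.30, -1.42, -1.41 and -1.54, and the groups did not overlap. The difference was -1.42 ± 0.08 (SE), 2.68-fold lower (limma adjusted p 0.000153). Like Slfn2, it depends on the brightness correction. Its mean ratio before loess was -0.01, loess took off 1.42, and median centring gave -0.73, still called. Median centring also brought Slfn1 to -2.43, Slfn8 to -1.39 and Slfn9 to -1.38, each still called.

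Slfn5, a nuclear long-group member known to be induced by interferon, was lower on all 4 arrays without being called. Its level was 7.53 and 7.57 in the thymic preps and 7.36 and 7.02 in the in vitro preps. The array ratios were -0.11, -0.50, -0.30 and -0.54, the less negative pair being the arrays with in vitro prep 1. In vitro prep 1 lay nearer to the thymic levels than in vitro prep 2 did. The groups did not overlap, which on 2 preps a side says little. The difference was -0.36 ± 0.12 (SE), with a 95% interval of -0.67 to -0.06 before any adjustment and a limma adjusted p of 0.0514. Leaving out in vitro prep 1 gave -0.52, and leaving out in vitro prep 2 gave -0.21. Leaving out array 1 gave -0.40 with a limma adjusted p of 0.0204, which is a call. Leaving out array 4 gave the same -0.40 with 0.0688, which is not. Median centring gave -0.17 (adjusted p 0.309) and the scanner software's processed signals -0.68 (adjusted p 0.0571).

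**Figure D2:**
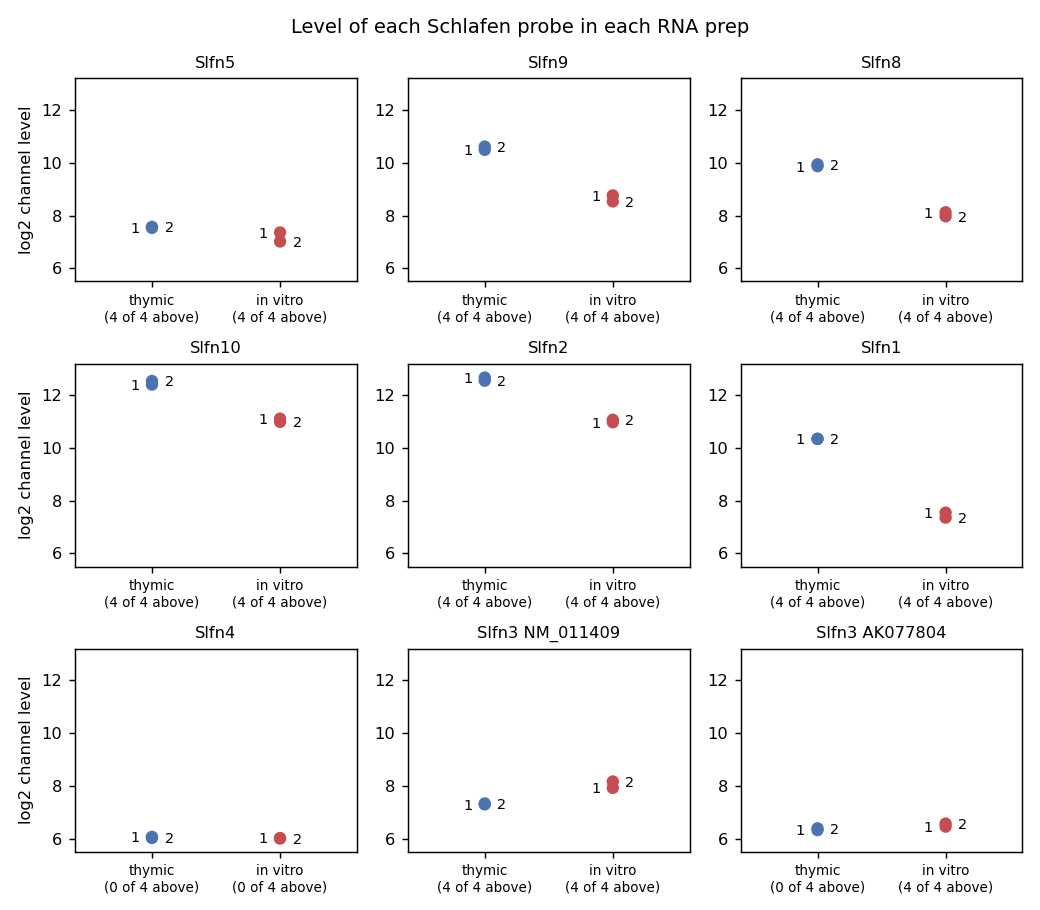
The log2 channel level (vertical axis, after loess and between-array scaling of the channels) of each Schlafen probe in thymic preps 1 and 2 (blue) and in vitro preps 1 and 2 (red), 1 point per prep, with the number of arrays on which the spot was well above background. Levels of different probes are not comparable; within a panel the groups are far apart for Slfn1, Slfn2, Slfn8, Slfn9 and Slfn10, and in vitro prep 1 of Slfn5 lies near the thymic preps.

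Slfn3, an intermediate-length member, went the other way. On its NM_011409 probe the level was 7.30 and 7.33 in the thymic preps and 7.92 and 8.16 in the in vitro preps. The array ratios were 0.69, 0.74, 0.58 and 0.91, and the groups did not overlap. The difference was 0.73 ± 0.08 (SE), 1.66-fold higher, with a limma adjusted p of 0.00141, and with the processed signals it was 1.10.

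The other Slfn3 probe, AK077804, was well above background in Cy5 on all 4 arrays and in Cy3 on none. Its level was 6.32 and 6.39 in the thymic preps and 6.45 and 6.57 in the in vitro preps, and its ratios were 0.07, 0.33, 0.06 and 0.16. The groups lay close together, though they did not overlap. The difference was 0.15 ± 0.08 (SE; 95% interval -0.06 to 0.37, limma adjusted p 0.182), and median centring turned it to -0.12. The thymic signal is only a bound. On each array the thymic value was taken as the higher of the probe's own signal and the dimmest signal well above background. That puts the in vitro-derived mean 1.10-fold higher. This value carries no error and is open to dye bias, and the fit does not call the difference. Averaged over both probes, the difference was 0.44 (limma adjusted p 0.00714). That average takes in the AK077804 probe, which was tested on its in vitro signal alone and is listed under no RefSeq gene. It is therefore no firmer a value for Slfn3 than the NM_011409 probe.

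Slfn4, an intermediate-length gene best known in myeloid cells, did not rise clearly above background in either channel on any of the 4 arrays. Its level was 6.065 and 6.022 in the thymic preps and 6.018 and 6.001 in the in vitro preps, with array ratios of -0.03, 0.01, 0.03 and -0.15. The groups did not overlap even here, at background, and no fold is given. Slfnl1, a Schlafen-like gene on another chromosome, was above background in Cy5 on 1 array and in Cy3 on none, and was not tested.

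The gap between the preps of 1 origin can be read from the channel levels or from the array ratios, which set both preps against the same partners, and the readings differ. By levels the gap was larger in vitro for 6 of the 9 Schlafen probes, and the exceptions were Slfn2, Slfn4 and Slfn10. The largest gap in level was 0.34 in vitro (Slfn5) and 0.14 in the thymus (Slfn10). By ratios it was larger in vitro for all 9, as it was for 67.8% of all tested probes, and the largest was 0.32 in vitro (Slfn5) and 0.11 in the thymus. By either reading in vitro prep 2 was the lower of the pair for Slfn1, Slfn4, Slfn5, Slfn8, Slfn9 and Slfn10 and the higher for Slfn2 and both Slfn3 probes.

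**Figure D3:**
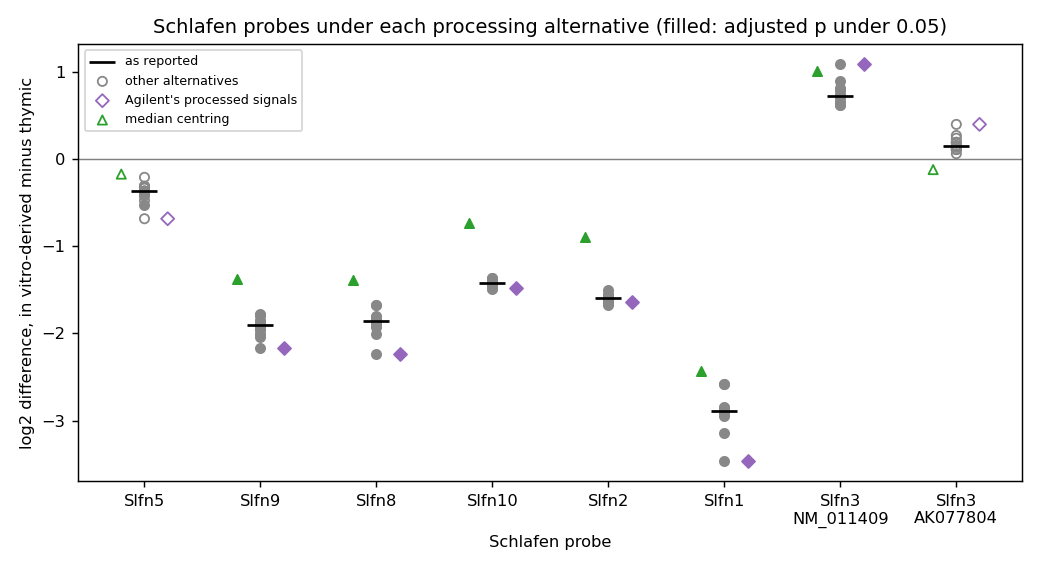
The log2 difference (vertical axis, in vitro-derived minus thymic) of each tested Schlafen probe (horizontal axis) as reported (bar) and under each processing alternative, with filled symbols where the limma adjusted p was under 0.05. Slfn10 and Slfn2 move toward 0 with median centring (-0.73 and -0.89), as do Slfn1, Slfn8 and Slfn9 (-2.43, -1.39 and -1.38). Slfn5 is called under some alternatives only.

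Along the chromosome the probes called lower were next to each other, from Slfn9 to Slfn1, followed by Slfn4 at background and Slfn3 called higher. The Slfn9 and Slfn10 probes are listed under other members' transcripts too, so this run cannot be read as separate genes throughout. Probes of the 5 genes on each side of the cluster were read for comparison. Of their 16 probes (10 genes), 11 were tested and 3 were called, all lower, with values between -0.55 and 0.26 and a median of -0.09. That count lies near the 25.6% of all tested probes called lower. Upstream, Nle1, a ribosome assembly factor, was -0.37 ± 0.07 (SE; limma adjusted p 0.00878). The 3 probes of Rad51d, a homologous recombination gene, were not called, at -0.09, 0.26 and -0.03, and the probes of Fndc8, Unc45b and the Slfn5 antisense transcript were not tested.

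Downstream, Ap2b1, a clathrin adaptor subunit, had 1 probe called lower (-0.55, limma adjusted p 0.00497) and 1 not called (-0.11). The tested probes of Rasl10b (0.13), 1700020L24Rik (0.12) and Mmp28 (-0.04) were not called. None of the flanking values reached the -1.42 of Slfn10.

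Unnamed transcripts with probes inside the cluster's span were looked at after their values were seen. AK138790, a neonatal thymus cDNA whose probe lies between those of Slfn5 and Slfn9, had ratios of -0.60, -0.95, -0.68 and -1.02. Its difference was -0.81 ± 0.12 (SE; limma adjusted p 0.00402), and like Slfn5 it was lower in in vitro prep 2 than in prep 1 (prep 2 minus prep 1 was -0.34 by the ratios). Beyond Slfn3, the skin cDNA AI662270 had ratios of 0.61, 0.89, 0.54 and 0.77 and was 0.70 ± 0.10 higher (limma adjusted p 0.00340). LOC435271, a predicted gene annotated as similar to Slfn3, was 0.29 ± 0.08 higher (limma adjusted p 0.0262), and the strand and splicing of these transcripts relative to the Schlafen genes were not resolved here. Between Slfn4 and the downstream flanking genes the 3 called probes, the NM_011409 probe of Slfn3 among them, were all higher. Of all tested probes 26.6% were called higher. With the transcripts picked after their values were seen, this count says nothing about the region.

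**Figure D4:**
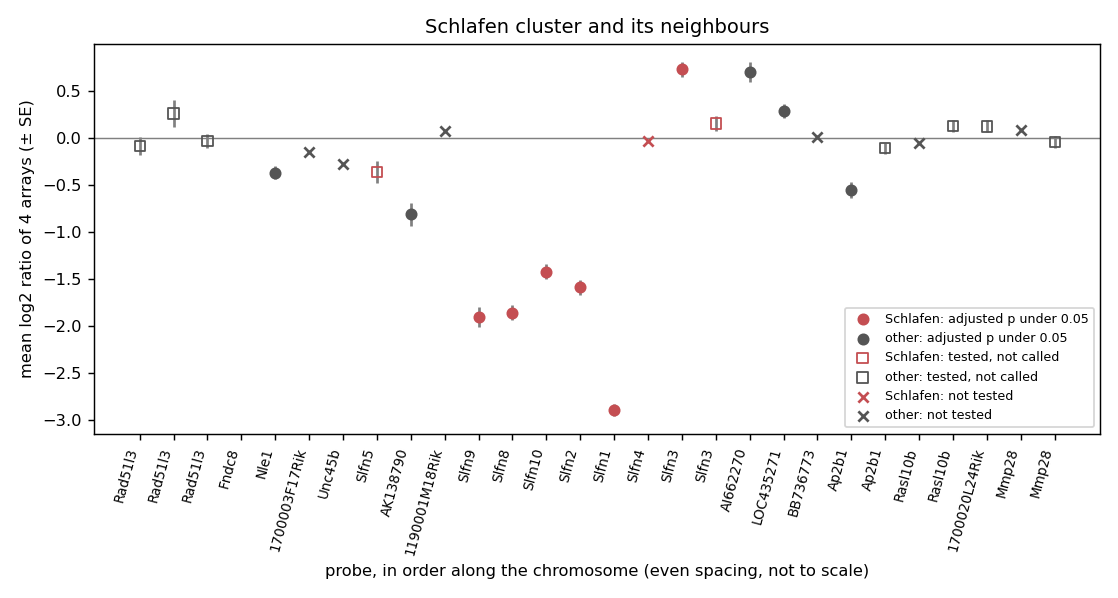
The mean log2 ratio of 4 arrays (vertical axis, in vitro-derived over thymic, ± SE where tested) of Schlafen probes (red) and of other probes reported in and beside the cluster (grey), in chromosomal order with even spacing; Fndc8 has no point because it lacked a value on 1 array. The probes from Slfn9 to Slfn1 lie between -2.89 and -1.42, those just after Slfn4 lie above 0, and the flanking genes lie between -0.55 and 0.26 where tested.

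Because type I interferon induces several Schlafen genes, a list of interferon response genes was read beside them. All 33 tested genes of the 34 listed were called lower, with values from -4.79 to -0.36 and a median of -1.71, beside a median of 0.03 for all tested genes. The farthest were Ifi27l2a (-4.79 ± 0.07 SE), Ifit1 (-4.39 ± 0.09), which binds viral RNA ends, and Oas2 (-4.00 ± 0.10), which makes the second messenger for RNase L. Of these genes 5 lay below Slfn1. With median centring 29 were called lower and the median was -1.05, while Ifit2 turned from -0.36 to 0.18 and Bst2 from -0.83 to 0.13.

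Among 18 genes of interferon receptors and signalling, 12 were called lower, 3 higher and 3 not, with a median of -0.64. With median centring these counts became 5 lower and 8 higher (median 0.04), so the list's direction depends on the correction. Usp18, a brake on the receptor, was -2.53 ± 0.10 (SE), and Irf7, which drives interferon genes, was -2.51 ± 0.06; both also stand in the response list. Irf9, a DNA-binding component of the complex that type I interferon activates, was -1.67 ± 0.06. Of the type I interferon receptor chains, Ifnar1 was -0.44 ± 0.08 (0.27 with median centring) and Ifnar2 was 0.12 ± 0.09, not called. With median centring both chains were called higher, Ifnar2 at 0.84. Against the majority, Ifngr1, a chain of the interferon gamma receptor, was 3.10 ± 0.17 higher, Socs1, an inhibitor of Jak kinases, 0.86 ± 0.18 and Irf8 0.33 ± 0.06.

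The members known for growth restraint were set beside genes of T cell quiescence and of proliferation. Of 26 tested quiescence genes, 8 were called lower, 7 higher and 11 were not called, with a median of 0.04. These counts lie near the shares over all tested genes, 25.3% lower and 26.7% higher. Cdkn2c, a kinase inhibitor, was 2.55 ± 0.11 (SE) higher, Klf4 2.17 ± 0.58 higher, and Peli1, an E3 ligase that restrains T cell activation, was -1.71 ± 0.07. With median centring 19 were called higher and 2 lower (median 0.60), so the split of this list also depends on the correction. Klf2, a quiescence factor that also controls thymic exit, was 0.09 ± 0.08 and not called. With median centring it was 1.30 and called, so its reading depends on the correction too.

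Of 22 proliferation genes 19 were called higher, 1 lower and 2 were not called, with a median of 1.64 (2.59 with median centring). Ccnb1, the mitotic cyclin, was 2.64 ± 0.12 (SE) higher and Ccna2, the S and G2 cyclin, 2.48 ± 0.19 higher. Ccnd2, a G1 cyclin, went against the list at -3.02 ± 0.08, and at -2.02 with median centring. Ccnd1 (0.10) and Myc (0.31) were not called, though Myc was 1.15 and called with median centring.

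**Figure D5:**
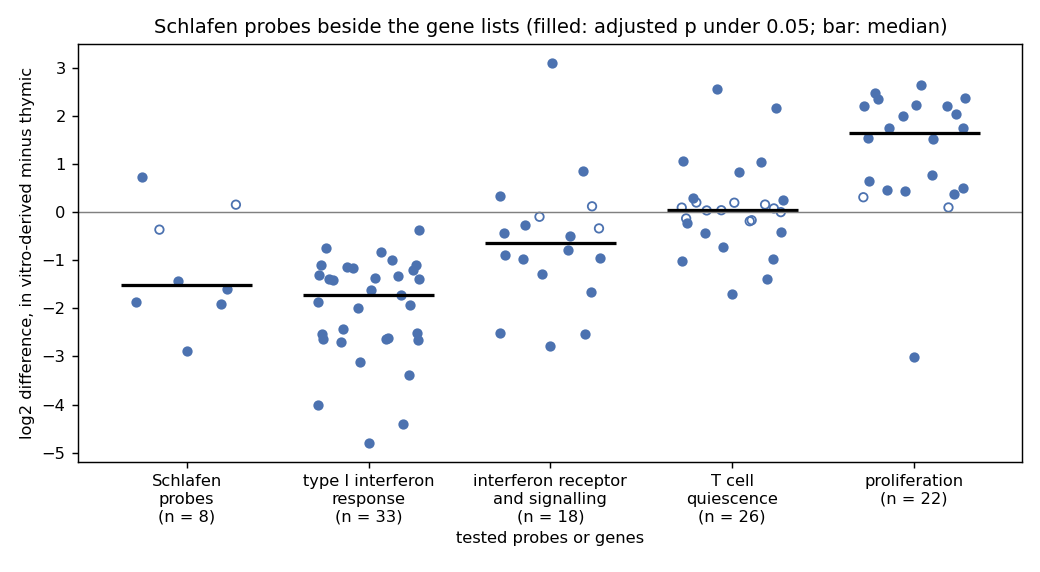
The log2 difference (vertical axis, in vitro-derived minus thymic) of the 8 tested Schlafen probes and of the tested genes of 4 lists (horizontal axis), filled where the limma adjusted p was under 0.05, with the median as a bar. The interferon response genes all lie below 0 (median -1.71), proliferation genes mostly above 0 (median 1.64), and Schlafen probes spread from -2.89 to 0.73.

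Markers of other cells that a sort could carry along were read with the same fit. Their counts stand beside 25.3% of all tested genes called lower and 26.7% called higher. CD8 T cell markers were present in both origins: of 8, 6 were called lower, 1 (Lck) higher and 1 (Cd3d) not, with a median of -0.64, or 0.40 with 6 higher and none lower under median centring. Stromal markers were higher in the in vitro-derived cells for all 7 tested of 10 (median 2.89). A probe could be tested on its in vitro signal alone, so this count partly follows from the filter. Thymic levels of Postn (6.38) and Fn1 (6.45) lay near the dimmest thymic signals well above background (6.21 to 6.34). The summed linear level of the stromal markers was 1144 and 1089 in the thymic preps and 9829 and 12384 in the in vitro preps. Such a sum adds probes whose levels are not comparable. Pdgfra was not above background on any array. The rise of the stromal markers has the direction of Slfn3. The part of stromal cells in the Slfn3 difference was not tested.

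Of 14 myeloid markers 10 were tested, with 5 called lower, 3 higher and 2 not called. Their summed level, with the same limit, was 2159 and 2048 in the thymic preps and 1738 and 1735 in the in vitro preps. The neutrophil markers S100a8 and Csf3r, like Slfn4, were not above background on any array. S100a9, the farthest from 0 of the 10 tested, was -2.16 ± 0.11 (SE). Its in vitro level of 6.17 lay among the dimmest in vitro signals well above background (6.03 to 6.24). A probe could be tested on its thymic signal alone. The 3 called higher were Itgam (0.64 ± 0.12), Cd68 (0.49 ± 0.11) and Mpo (0.47 ± 0.10). B cell markers gave 1 call each way among 7, and NK cell markers 1 lower among 3. The median difference was 0.07 over 3 tested dendritic cell markers and 0.06 over 2 tested erythroid markers. Ncr1, Siglech, Clec9a and Cd209a were not above background on any array. The part of these cells in the lower Schlafen values was not tested.

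The tested genes whose 4 array ratios came nearest to a member's were found by the root mean square distance on the log2 scale over the 4 arrays. For Slfn1 they were Rab4a (0.057), Als2cl (0.077) and Itgae (0.091), the last the integrin chain CD103, with a difference of -2.88 ± 0.09 (SE). For Slfn2 they were Rab3ip (0.025), Tle4 (0.039) and Pea15a (0.047). For Slfn5 they were Mapk1ip1 (0.039), a transcript known only by an Ensembl number (0.050) and Plgrkt (0.052). Such neighbours share arrays and preps with the member, and nearness in 4 ratios says no more than that.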

How the data were processed

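Two-colour Agilent arrays compared RNA amplified and labelled from 1 ug of total RNA per prep, per the labels. The deposited scanner files hold spot intensity values of both channels and a log10 ratio of Cy5 over Cy3, which per the file headers came from version 9.5.1.1 of Agilent Feature Extraction. A series table deposited by the authors gives 1 log10 ratio per probe. Here mean signals and median local backgrounds were corrected with normexp (offset 50) and loess in limma 3.58.1 (R 4.3.3), with control spots at weight 0. Spots that the scanner software marked as non-uniform or outlying (133 to 187 per array, no Schlafen spot) were left out first; that step was chosen with the data in view.

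A probe was tested where either channel was well above background on every array and all 4 ratios existed. The 4 ratios were turned into 4 prep values, because arrays share preps, and fitted with lmFit and eBayes (2 residual and 3.19 prior degrees of freedom), with Benjamini-Hochberg adjustment. The fit was tested on simulated data, but the outcome is not given here. Channel levels are log2 values after loess and Aquantile. Names were updated through RefSeq accessions (22951 probes matched, 5141 names changed).

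The members, lists, tests and alternatives were chosen with earlier results of these data known. Text names every member, 5 flanking genes per side, and the 3 nearest genes for Slfn1, Slfn2 and Slfn5. From each list it names the 3 tested genes farthest from 0 and any against a clear majority. A few others were chosen after their values were seen (Ifit2, Bst2, Irf9, Ifnar1, Klf2, Ccnd1, Myc, Itgam, Cd68 and Mpo). Probe and protein sequences were not used here. A few genes that this rule names are counted but not reported by name here.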

Additional observations from a re-analysis of the deposited data

How the results depend on the processing

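Over 18 alternatives of background, normalization, filter and samples, 5 to 6 Schlafen probes were called lower and 1 higher, the sixth being Slfn5. The values ranged from -3.47 to -2.43 for Slfn1, -1.67 to -0.89 for Slfn2, -2.24 to -1.39 for Slfn8, -2.17 to -1.38 for Slfn9, -1.48 to -0.73 for Slfn10 and 0.63 to 1.10 for the NM_011409 probe of Slfn3, and each was called in all 18 (highest limma adjusted p 0.0336, for Slfn3). Slfn5 ranged from -0.68 to -0.17 and was called in 3 of 18, without in vitro prep 1, without array 1 and with the replicate block; the cause was not tested. Of all tested probes 14223 were called, 19269 with median centring, 10134 with the background fitted on all spots, 8713 or 8138 without thymic prep 1 or 2, and 13911 or 14067 without in vitro prep 1 or 2, with the cause not tested; a lone prep is then assumed to vary like the others. Aquantile left every ratio as it was.

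Preps of both origins are numbered 1 and 2, but nothing says that equal numbers belong together. Across the tested probes, the difference between thymic preps 1 and 2 correlated at 0.13 with that between in vitro preps 1 and 2. Only 2 preps of each origin enter it. With the prep number as a replicate block, 14670 probes were called and Slfn5 had -0.36 with a limma adjusted p of 0.0291; no other Schlafen call changed. Signal over background limits Slfn4 and the AK077804 probe of Slfn3.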
